A study of Mus musculus with 20 samples.

Results

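Nuclear genes of oxidative phosphorylation were followed across 12 fractions of mouse CD4 T cells on 20 single-colour Agilent arrays. Members were taken by name: every gene on the array whose symbol begins with Ndufa, Ndufb, Ndufc, Ndufs, Ndufv, Uqcr, Atp5 or Cox4 to Cox8, and Sdha to Sdhd. Of 30199 gene names on the array 93 met this rule, and each gene was represented by its brightest probe. Of the 93 genes, 88 were bright enough to be tested among 22264 probes. They hold 37 genes of complex I, 4 of complex II, 8 of complex III, 14 of complex IV and 15 of complex V, beside 9 factors that are no subunits (Ndufaf1 to Ndufaf7, Atp5s and Atp5sl) and 1 pseudogene, Atp5c1-ps. Ndufa4 was counted with complex I by its name, although it is now placed in complex IV, and Cox7a2l, a factor that joins complexes III and IV, was counted with complex IV. The 5 genes left out were dim: Ndufa4l2, Cox7b2, Cox8b and Cox8c were detected on 0 arrays and Cox6a2, the muscle form of its subunit, on 5.

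Oxidative phosphorylation takes place at the inner mitochondrial membrane. Complexes I and II feed electrons from NADH and succinate into ubiquinone, complex III passes them to cytochrome c, complex IV reduces oxygen, and complex V, the ATP synthase, uses the proton gradient so formed. Most subunits are encoded in the nucleus and a small set of core subunits in mitochondrial DNA. Resting T cells rely mainly on this pathway, whereas activated, dividing T cells add much glycolysis.

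The study sorted follicular T helper (TFH) and follicular regulatory (TFR) cells, which live in B cell follicles, and the naive and regulatory T cells (Treg) from which they are thought to arise. All fractions came from mice of the strain B6.Cg-Foxp3<tm1Mal>, in which GFP marks Foxp3-expressing cells, of mixed sexes and 8 to 14 weeks old, and each array held RNA of cells pooled from 8 to 15 mice. From peripheral lymph nodes (pLN) after subcutaneous KLH in alum, naive T (GFP-PD1-GL7-), Treg (GFP+PD1-GL7-), TFH (GFP-PD1hiGL7+) and TFR (GFP+PD1hi, with or without GL7) were taken at day 12 (2 arrays per fraction) and day 25 (1 array per fraction). From Peyer's patches (PP), whose labels name no immunisation, Treg, TFR, GL7+ TFH and GL7- TFH were taken (2 arrays each), and no naive T cells. In a sorted fraction, a change in every cell and a change in the mix of cells cannot be told apart.

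The arrays lay on 5 slides of 4, by the slide field of the scanner files: slides 1 and 2 held pLN day 12, slide 3 pLN day 25, and slides 4 and 5 PP. Tissue, immunisation and slide therefore cannot be told apart. Between 43.0% and 58.0% of probes were detected per array and no probe was saturated. CD4 T cell genes were bright on every array (summed intensity of 4 genes from 330820 to 586780), and Foxp3 ranged from 13409 to 35129 in Treg and TFR against 27 to 192 elsewhere. On slide 4 the summed intensity of 12 B cell genes was 25593 to 176940 and that of 8 epithelial genes 4150 to 9400, against 5825 to 23922 and 437 to 2390 on the other 4 slides.

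Promoter sequences are shown for the 4 members whose follicular arrays lay apart from the others, Cox7a2l and Ndufa6 on the lower and Cox8a and Uqcr10 on the higher side. Each runs 5′ to 3′ along the gene's strand, from 250 bases before to 50 bases after the start, as RefSeq gives it on GRCm38.p6. They lie at chr17:83514284-83514583 for Cox7a2l, chr15:82354242-82354541 for Ndufa6, chr19:7217567-7217866 for Cox8a and chr11:4704295-4704594 for Uqcr10, all on the minus strand. Capitals mark matches, on either strand, to 5 short motifs of factors known to act on mitochondrial genes: NRF1 (GCATGCGC), GABPA (CCGGAAG), YY1 (AAGATGGC), ERR (TCAAGGTCA) and the Sp/KLF family (GGGCGG).
Cox7a2l: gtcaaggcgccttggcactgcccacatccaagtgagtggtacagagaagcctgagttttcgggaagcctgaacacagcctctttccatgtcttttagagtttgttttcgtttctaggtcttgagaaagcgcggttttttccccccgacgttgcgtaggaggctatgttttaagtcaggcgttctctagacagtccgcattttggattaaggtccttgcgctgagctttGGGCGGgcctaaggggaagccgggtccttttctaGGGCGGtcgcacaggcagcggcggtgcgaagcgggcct
Ndufa6: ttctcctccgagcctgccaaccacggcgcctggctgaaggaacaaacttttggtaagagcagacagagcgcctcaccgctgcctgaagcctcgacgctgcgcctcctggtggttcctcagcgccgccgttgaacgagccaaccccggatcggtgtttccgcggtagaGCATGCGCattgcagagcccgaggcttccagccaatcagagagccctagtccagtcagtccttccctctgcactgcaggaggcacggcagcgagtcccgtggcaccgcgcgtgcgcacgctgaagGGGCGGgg
Cox8a: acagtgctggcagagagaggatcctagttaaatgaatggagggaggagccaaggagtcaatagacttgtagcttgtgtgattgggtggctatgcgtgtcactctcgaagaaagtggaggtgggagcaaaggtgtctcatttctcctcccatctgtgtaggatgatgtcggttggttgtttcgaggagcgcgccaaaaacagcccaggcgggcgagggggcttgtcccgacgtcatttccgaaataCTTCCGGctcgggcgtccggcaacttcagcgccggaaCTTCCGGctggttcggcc
Uqcr10: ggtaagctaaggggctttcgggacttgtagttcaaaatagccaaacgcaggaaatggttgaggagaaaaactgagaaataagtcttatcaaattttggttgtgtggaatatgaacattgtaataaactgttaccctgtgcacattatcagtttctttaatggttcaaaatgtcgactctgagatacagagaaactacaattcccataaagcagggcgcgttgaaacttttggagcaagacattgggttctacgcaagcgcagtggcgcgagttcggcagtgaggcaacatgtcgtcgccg
Cox7a2l holds only Sp/KLF letters, 2 times. Ndufa6 holds an NRF1 and an Sp/KLF match, Cox8a 2 GABPA matches, and Uqcr10 none of the 5 in this window. Among the 76 members with a listed promoter, NRF1 letters stood in 12 (15.8%, against 3.05% of 27025 genes), GABPA letters in 17 (22.4% against 9.93%), YY1 letters in 11 (14.5% against 3.19%), ERR letters in 2 (2.63% against 0.466%) and Sp/KLF letters in 34 (44.7% against 38.2%). A match describes the sequence and no binding was measured.

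In 4 members the 12 TFH and TFR arrays did not overlap the 8 naive and Treg arrays, across both tissues and both days. Uqcr10 and Cox8a were higher in the follicular fractions (2 of 88 members, where 3.77% of all tested probes lay entirely higher), and Cox7a2l and Ndufa6 were lower (2 of 88, where 2.88% of all tested probes lay entirely lower). These shares are close to those of all probes, so the counts are a description of these genes. Values below are normalised intensities on a linear scale, on which the 75th percentile of each array is near 1500.

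Cox7a2l encodes the factor that binds complex III to complex IV in respiratory supercomplexes. In pLN at day 12 its intensity was 146450 and 139000 in naive T, 139680 and 134550 in Treg, 78742 and 85156 in TFH, and 81967 and 82240 in TFR. At day 25 the single arrays read 141400 in naive T, 136570 in Treg, 78654 in TFH and 93283 in TFR. In PP it was 117560 and 115260 in Treg, 62267 and 66256 in TFR, 62088 and 69169 in GL7+ TFH and 66882 and 78462 in GL7- TFH. The highest follicular array, TFR at day 25, thus lay below the lowest Treg array, in PP. The array has 3 probes for this gene, which gave log2 differences of -0.80, -1.09 and -1.19 for TFH minus naive T in pLN.

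Ndufa6 encodes an accessory subunit of complex I of the LYR-motif family. Its pLN day 12 intensities were 34343 and 41018 in naive T, 33591 and 38583 in Treg, 19162 and 27371 in TFH, and 19871 and 25029 in TFR. At day 25 they were 38399, 39354, 23676 and 24990 in the same order. In PP the first and second replicates differed widely, with 30776 and 44332 in Treg, 16056 and 27606 in TFR, 16070 and 24417 in GL7+ TFH and 18536 and 30340 in GL7- TFH. The highest follicular array (30340) and the lowest other array (30776), both from PP but from different slides, nearly touched.

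Uqcr10 encodes a small subunit of complex III that lies beside cytochrome c1. In pLN at day 12 it read 33789 and 33051 in naive T, 37724 and 34268 in Treg, 54495 and 51743 in TFH, and 57906 and 52504 in TFR. At day 25 the 4 arrays in this order read 33543, 35457, 51853 and 50260. In PP Treg read 29650 and 27145, TFR 42895 and 42211, GL7+ TFH 45322 and 41677, and GL7- TFH 46863 and 40508. Replicates of a fraction lay close together here, and Treg, TFH and TFR of PP lay below their pLN counterparts.

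Cox8a encodes a small nuclear subunit of complex IV, in the form found in most tissues. In pLN at day 12 it read 116340 and 103070 in naive T, 120310 and 107640 in Treg, 196650 and 155580 in TFH, and 171990 and 154300 in TFR. At day 25 it read 109730, 111250, 193500 and 148650 in the same order. In PP it read 119310 and 79418 in Treg, 188430 and 131700 in TFR, 197660 and 143550 in GL7+ TFH and 184820 and 122530 in GL7- TFH. The lowest follicular array, GL7- TFH on slide 5, stood just above the brightest Treg array (122530 against 120310). When arrays were scaled to their 75th percentile without quantile normalisation, Cox7a2l alone among these 4 genes kept all follicular arrays apart from the others.

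**Figure D1:**
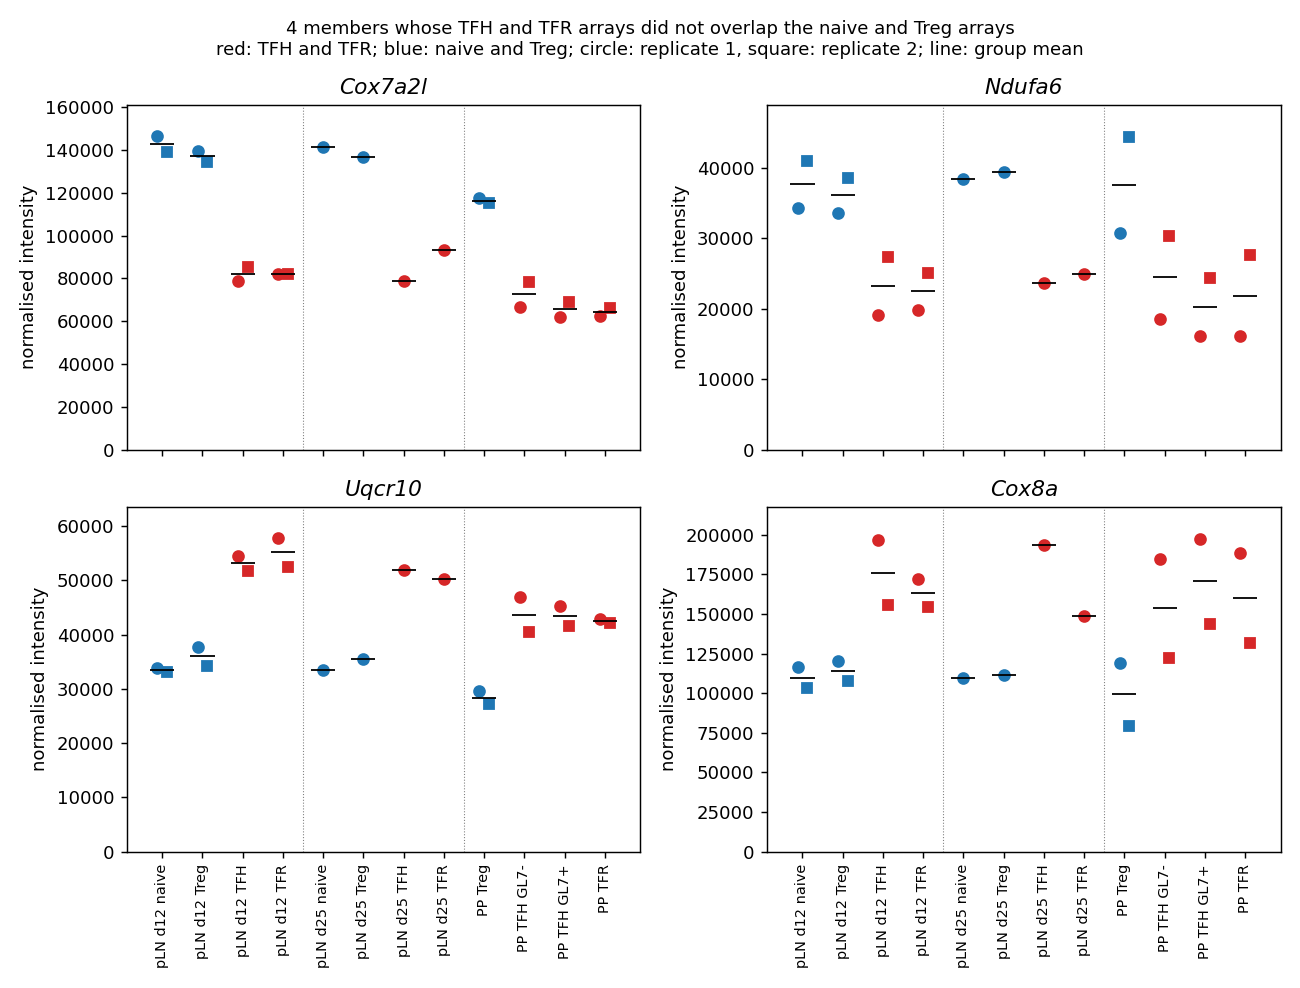
Normalised intensity (linear axis from 0) of Cox7a2l, Ndufa6, Uqcr10 and Cox8a on each of 20 arrays in 12 groups, with circles for replicate 1, squares for replicate 2 and a line for the group mean. Red TFH and TFR points of Cox7a2l lie between 62088 and 93283, below the blue naive and Treg points at 115260 to 146450.

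The first comparison asked how TFH cells differed from naive T cells in pLN at day 12. In a limma model of group means (all 12 groups, 20 arrays), 3 of 88 members were higher (11.1% of all tested probes were) and 1 was lower (8.73% of all tested probes were), at a Benjamini-Hochberg adjusted p under 0.05. Uqcr10 was higher by a log2 difference of 0.67 ± 0.14 (SE, adjusted p = 0.00809), Ndufs8, an iron-sulfur core subunit of complex I, by 0.52 ± 0.15 (adjusted p = 0.0338) and Ndufaf2, an assembly factor of complex I, by 0.55 ± 0.17 (adjusted p = 0.0468). Cox7a2l was lower by a difference of -0.80 ± 0.14 (adjusted p = 0.00256). Ndufs8 read 12082 and 12335 in naive T and 16636 and 18500 in TFH, and Ndufaf2 read 3004 and 2968 in naive T and 3726 and 5122 in TFH, so that neither gene's arrays overlapped. Ndufs8 lost its call without any 1 of these 4 arrays. Ndufaf2 kept its call without TFH replicate 1 and lost it without any of the other 3, and also with 75th percentile scaling (0.53, adjusted p = 0.0588), normexp background (0.52, 0.0641) and the authors' values (0.55, 0.0505). Uqcr10 lost its call without TFH replicate 1, and a fit of the 2 groups alone called none of these 4 genes. Other large differences that missed the threshold were those of Cox7a1 (1.83, adjusted p = 0.0607), Ndufa6 (-0.71, 0.217), Cox8a (0.68, 0.145), Atp5g3 (0.57, 0.212), Atp5e (0.54, 0.179), Ndufb8 (0.53, 0.145) and Cox6a1 (0.52, 0.249).

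Apart from Ndufs8, the central subunits of the 5 complexes did not pass the threshold in this comparison. In complex I the core subunit Ndufs7 read -0.02, Ndufs1 and Ndufs3 0.03, Ndufv1 0.05 and Ndufv2 0.16. Succinate dehydrogenase split, with its catalytic flavoprotein Sdha at -0.25 and its membrane anchor Sdhc at -0.34 against the iron-sulfur protein Sdhb at 0.27 and the second anchor Sdhd at 0.19. In complex III the core proteins Uqcrc1 and Uqcrc2 read 0.06 and -0.13 and the Rieske protein Uqcrfs1 -0.42. In complex IV Cox4i1, Cox5a and Cox5b read 0.12, 0.32 and 0.42, and in the catalytic head of complex V Atp5a1, Atp5b and Atp5c1 read -0.01, 0.20 and 0.18. Of these, Sdha, Sdhb, Sdhc, Uqcrfs1, Cox5a and Cox5b passed in the model with a slide block described next. The median over the 88 members was 0.156 against -0.091 over all tested probes, but with arrays scaled to the 75th percentile it was -0.059 against -0.143, so the sign of the members' median turned with the scaling.

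Arrays that shared a slide deviated from their group means together, with correlations of 0.521 to 0.721 in pLN and 0.661 to 0.866 in PP. A second model therefore held the slide as a block, which lowered the members' median residual SD from 0.221 to 0.0692 on the log2 scale. In that model 28 of 88 members were higher in TFH than in naive T (21.3% of all tested probes were) and 8 were lower (29.4% of all tested probes were). Among those that rose were Ndufb8, an accessory subunit of complex I (0.53 ± 0.08, adjusted p = 0.000667), Cox8a (0.68 ± 0.08, adjusted p = 0.000287), Atp5g3, which encodes the c subunit of the ATP synthase ring (0.57 ± 0.08, adjusted p = 0.000484), and Cox6a1, the form of its complex IV subunit found outside muscle (0.52 ± 0.09, adjusted p = 0.00159). Those that fell were Cox7a2l, Ndufa6 (-0.71 ± 0.10, adjusted p = 0.000667), Ndufa10, Cox6b2, Ndufb4, Sdhc, Sdha and Uqcrfs1, the last with a difference of -0.42. The list of genes called thus rested on whether the slide was taken into account, while the differences themselves were the same in both models.

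Cox7a1 encodes the heart and muscle form of a complex IV subunit whose other forms are Cox7a2 and, by sequence, Cox7a2l. Its pLN day 12 intensities were 130 and 137 in naive T, 219 and 162 in Treg, 440 and 509 in TFH, and 645 and 726 in TFR. At day 25 it was not well above background in naive T (101) or Treg (136) and read 508 in TFH and 619 in TFR. In PP it read 653 and 148 in Treg, 873 and 496 in TFR, 702 and 392 in GL7+ TFH and 728 and 384 in GL7- TFH, so that Treg of slide 4 lay among the follicular arrays and Treg of slide 5 did not. In the slide-block model it rose by 1.83 ± 0.31 in TFH against naive T (adjusted p = 0.00163), the largest difference of any member. Cox7a2 differed by 0.15 in the same comparison and did not pass in either model (adjusted p = 0.830 and 0.250).

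Other isoform sets differed less. Cox4i1 and its hypoxia-linked form Cox4i2 read 0.12 and -0.38 for TFH minus naive T, and neither passed in either model. Of the pair Cox6b1 and Cox6b2, the second known mainly from testis, Cox6b1 rose by 0.28 (adjusted p = 0.0247) and Cox6b2 fell, with -0.44 (adjusted p = 0.0128), in the slide-block model. Of the genes that encode the c subunit, Atp5g2 (0.37) and Atp5g3 (0.57) rose in that model, and Atp5g1 read 0.18 with an adjusted p of 0.0919. A second, dimmer probe of Atp5g1 gave the opposite direction, -0.87 ± 0.16, and passed in the model of group means (adjusted p = 0.00279), so the 2 probes of this gene disagree. Cox7b rose by 0.23 (adjusted p = 0.0375) and Ndufa4 by 0.32 (adjusted p = 0.0300).

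The second comparison, TFR minus Treg, was made in pLN at day 12 and separately in PP. In pLN, 2 of 88 members were higher (7.27% of all tested probes were) and 1 was lower (4.34% of all tested probes were) in the model of group means. Ndufaf2 was higher by 0.84 ± 0.17 (adjusted p = 0.00999), with 3213 and 3540 in Treg and 6010 and 6099 in TFR, Uqcr10 was higher by 0.62 ± 0.14 (adjusted p = 0.0207), and Cox7a2l was lower, at -0.74 ± 0.14 (adjusted p = 0.00783). Cox7a1 (1.86, adjusted p = 0.0799), Ndufaf6 (0.81, 0.286), Atp5s (0.72, 0.518) and Ndufa6 (-0.69, 0.292) missed the threshold. All 3 calls were lost without TFR replicate 1 or either Treg array, and without TFR replicate 2 Cox7a2l alone was called. In the slide-block model 27 members were higher (18.5% of all tested probes were) and 4 were lower (22.5% of all tested probes were), the 4 being Cox7a2l, Ndufa6, Ndufb3 and Ndufb4. Complex IV took part in the rise with Cox5a (0.48), Cox5b (0.42), Cox6a1 (0.34), Cox7c (0.31) and Cox8a (0.52), and complex II with Sdhb (0.28) and Sdhd (0.40), whereas Sdha (-0.08) and Sdhc (-0.17) did not pass. The complex I core subunits ranged from -0.12 (Ndufs7) to 0.26 (Ndufv2) and Uqcrc1, Uqcrc2, Uqcrfs1, Cox4i1, Atp5a1, Atp5b and Atp5c1 from -0.09 to 0.30, none past the threshold in either model.

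In PP, 1 of 88 members was higher in TFR than in Treg (7.64% of all tested probes were) and 1 was lower (4.44% of all tested probes were). These were Uqcr10 (0.58 ± 0.14, adjusted p = 0.0252) and Cox7a2l (-0.86 ± 0.14, adjusted p = 0.00317). With the slide as a block 15 members were higher (19.2% of all tested probes were) and 6 were lower (19.9% of all tested probes were). Uqcrfs1, the Rieske protein, was among the latter at -0.75 (adjusted p = 0.00391), as were Ndufa6 at -0.81, Ndufa10 at -0.34, Ndufaf5 at -0.33 and Atp5c1-ps at -0.43. GL7+ TFH cells of PP were set against the same PP Treg arrays, so that both comparisons share these arrays. There 2 members were higher (7.29% of all tested probes were) and 1 was lower (5.77% of all tested probes were): Uqcr10 by 0.62 ± 0.14 (adjusted p = 0.0181), Ndufa1, a small membrane subunit of complex I, by 0.48 ± 0.13 (adjusted p = 0.0411), and Cox7a2l with -0.83 ± 0.14 (adjusted p = 0.00327). Ndufa1 read 70583 and 72424 in Treg against 101210 and 98144 in GL7+ TFH. The slide-block model called 18 members higher (21.3% of all tested probes were) and 7 lower (19.1% of all tested probes were). Without slide 4, on which B cell and epithelial genes were bright, each PP fraction has 1 array, whose spread is assumed to be that of the other groups. The differences stayed about as large, with -0.80 ± 0.17 for Cox7a2l and 0.64 ± 0.18 for Uqcr10 in TFR minus Treg, and -0.74 ± 0.17, 0.62 ± 0.18 and 0.44 ± 0.18 for Cox7a2l, Uqcr10 and Ndufa1 in GL7+ TFH minus Treg. None of these passed with so few arrays (adjusted p = 0.0663 to 0.275), and Cox7a1 was the 1 member called in each comparison.

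The 3 comparisons without shared arrays (TFH minus naive T in pLN, TFR minus Treg in pLN and TFR minus Treg in PP) had 12 members in common in the slide-block model. Higher in all 3 were Uqcr10, Cox8a, Cox6a1, Cox7a1, Atp5g3, Ndufb7, Ndufb8, Ndufc1 and the assembly factors Ndufaf2 and Ndufaf7, which are 10 of 88 members or 11.4% (9.45% of all tested probes were higher in all 3). Lower in all 3 were Cox7a2l and Ndufa6, which are 2.27% of members (10.2% of all tested probes were lower in all 3). Read on single slides, TFR minus Treg gave -0.77, -0.71, -0.55, -0.92 and -0.80 for Cox7a2l on slides 1 to 5, and 0.62, 0.62, 0.50, 0.53 and 0.64 for Uqcr10. Slide 3 holds the day 25 arrays, which entered none of the 3 comparisons. There 11 of the 12 members kept their direction for TFR minus Treg, and Ndufc1 read -0.05.

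**Figure D2:**
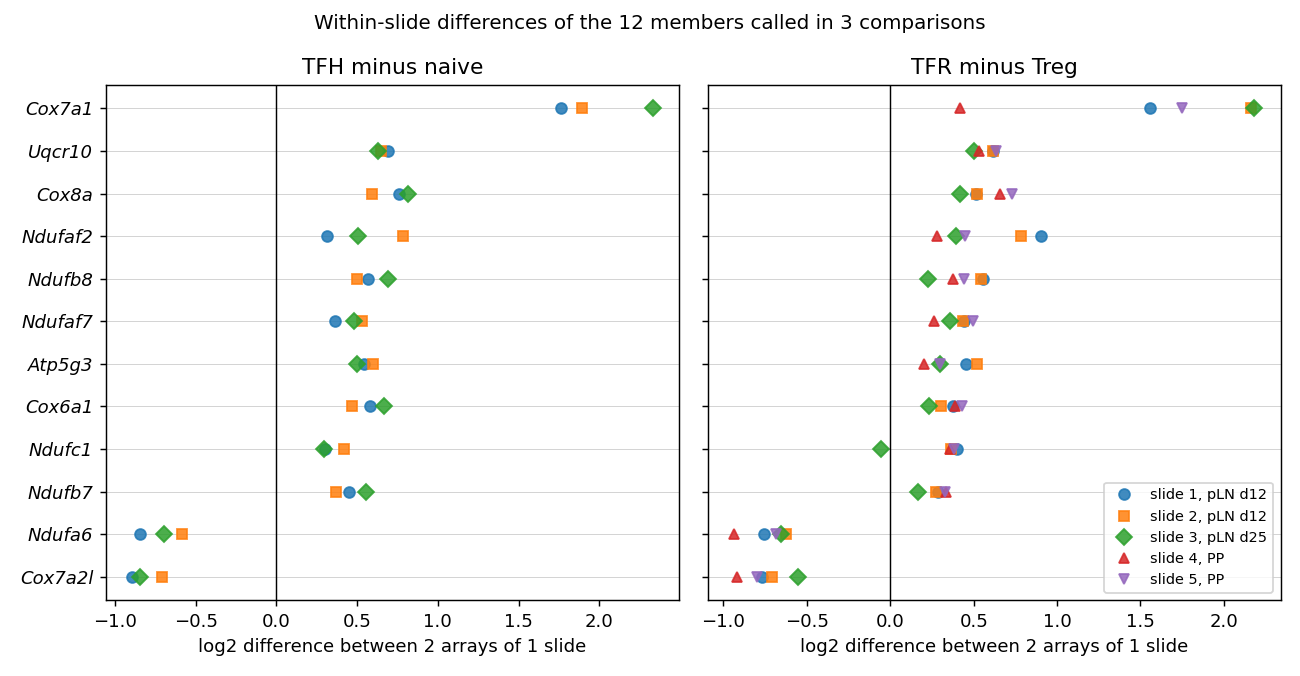
Log2 difference between 2 arrays of 1 slide (horizontal axis) for 12 members (rows), with TFH minus naive T on slides 1 to 3 on the left and TFR minus Treg on slides 1 to 5 on the right. Cox7a2l and Ndufa6 lie below 0 on every slide, Cox7a1 spreads from 0.42 to 2.18 for TFR minus Treg, and Ndufc1 has 1 point below 0, from slide 3.

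The scaling mattered for the higher members. With arrays scaled to the 75th percentile, Cox6a1 turned to -0.28, -0.12 and -0.15 in the 3 comparisons, Atp5g3 turned to -0.06 in PP, and Cox8a shrank to 0.01, 0.14 and 0.17. Cox7a2l (-1.46, -1.04 and -1.34), Ndufa6 (-0.86, -0.76 and -0.996) and Uqcr10 (0.46, 0.50 and 0.37) kept their directions, and so did the 6 other members called higher, but Uqcr10 no longer passed in the model of group means. The members' median for TFR minus Treg was 0.176 in pLN and 0.069 in PP, against -0.084 and -0.055 over all probes, and under that scaling 0.058 and -0.149, so that its sign turned in PP.

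**Figure D3:**
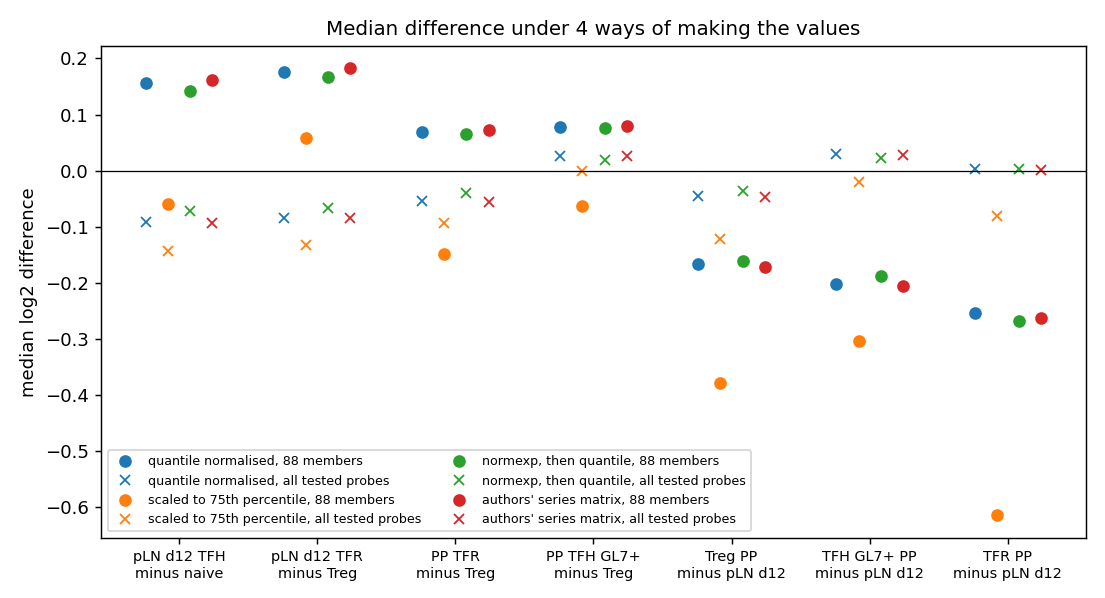
Median log2 difference (vertical axis) over 88 members (circles) and over all tested probes (crosses) in 7 comparisons, for 4 ways of making the values, by colour. With 75th percentile scaling the members' circle falls from 0.156 to -0.059 for TFH minus naive T, while the tissue comparisons on the right stay below 0 in all 4.

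Treg and naive T of pLN at day 12 differed in no member, where 4.21% of all tested probes were called in either direction, and 0 members reached an unadjusted p under 0.05. With the slide as a block 2 members were higher in Treg (8.47% of all tested probes were), Ndufb7 by 0.33 and Ndufaf7 by 0.34, and 1 was lower (5.75% of all tested probes were), Atp5sl at -0.35. The largest difference was that of Cox7a1, 0.50, with an adjusted p of 1.00.

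Between the follicular fractions the model of group means called no member. For TFR minus TFH in pLN at day 12, 6.03% of all tested probes were called. An unadjusted p under 0.05 was reached by 3 members and by 15.8% of all tested probes, and the slide-block model called 8 higher (12.8% of all tested probes were) and 1 lower (10.2% of all tested probes were). Higher in TFR were Cox6b2 (0.79), Sdhd (0.45), Ndufaf2 (0.47), Ndufaf5 (0.41), Ndufa10 (0.37), Ndufab1 (0.36), Ndufaf7 (0.33) and Ndufa12 (0.31), 3 of them assembly factors, and lower was Atp5sl (-0.37). For TFR minus GL7+ TFH in PP 3.89% of all tested probes were called and 0 members reached an unadjusted p under 0.05. The slide-block model called 0 members higher (6.8% of all tested probes were) and 2 lower (6.86% of all tested probes were), Atp5h at -0.36 and Ndufa3 at -0.31. GL7+ and GL7- TFH of PP differed in no member by either model, where 0.00898% and, with the block, 0.018% of all tested probes were called. The largest member difference between them was that of Ndufa8, -0.36, 0 members reached an unadjusted p under 0.05 in limma, and the methods' t-test called 1 before and 0 after adjustment.

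Days 12 and 25 were compared as the mean of the 4 pLN fractions, and no member was called where 0.0539% of all tested probes were. Ndufa10 had the largest difference (-0.39, adjusted p = 0.496), 1 member reached an unadjusted p under 0.05, and day 25 lies on a slide of its own. A test of any difference among the 12 groups called 8 of 88 members, where 33.6% of all tested probes were called. These were Cox7a2l (adjusted p = 0.000558), Ndufaf2 (0.00666), Uqcr10 (0.00698), Ndufaf5 (0.00803), Ndufaf4 (0.0138), Ndufa1 (0.0414), Cox7a1 (0.0471) and Ndufa12 (0.0498).

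Members varied little among fractions. Their median range over the 12 group means was 0.594 on the log2 scale against 1.20 for all tested probes, and a range over 1 was reached by 8 of 88 members against 13631 of 22264 probes. The median SD between group means (0.188) lay below the median SD within groups (0.221). Over all tested probes these medians were 0.383 and 0.341. Most members are bright, and brightness was not matched here, so the smaller range is not shown to be particular to these genes. The mean of the members' z-scores was highest in TFH of pLN at day 25 (0.89) and lowest in Treg of PP (-0.90). It correlated over the 12 group means with single members at r from -0.56 (Cox4i2) to 0.95, so Cox4i2 ran against the rest. Outside the rule, the genes of 17158 whose group means ran most like the members' mean were Sod1 (r = 0.955), Psmb6 (0.954), Dcaf10 (0.954), Bola3 (0.951) and Gatad1 (0.95), over 12 means that share slides.

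Between tissues, members passed the test in TFR, and those that passed were lower in PP than in pLN. For TFR, PP minus pLN day 12, 0 members were higher (8.06% of all tested probes were) and 8 of 88 were lower (8.18% of all tested probes were). The share called lower was close to that of all probes, so this count is a description of these genes. An unadjusted p under 0.05 was reached by 21 members, all lower in PP, and by 29.4% of all tested probes, a larger share than among the members. The 8 were the assembly factors Ndufaf5 (-0.92 ± 0.15, adjusted p = 0.00362), Ndufaf4 (-0.90 ± 0.15, adjusted p = 0.00446) and Ndufaf2 (-0.84 ± 0.17, adjusted p = 0.00879), the complex IV subunit Cox6b2 (-0.92 ± 0.24, adjusted p = 0.0262), Atp5c1 and Atp5g1 of the ATP synthase (-0.58 and -0.48), Ndufa12 of complex I (-0.49) and Sdhb of complex II (-0.49). The second probes of Atp5c1 and Atp5g1 read 0.26 ± 0.68 and 0.24 ± 0.16, in the other direction and past no threshold, and those of Ndufaf4 and Sdhb read -0.26 and -0.27, also past none. Ndufaf5 read 1369 and 1187 in TFR of pLN at day 12 and 649 and 696 in TFR of PP. Sdhb read 61685 and 56196 against 42659 and 41328.

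By class the median of TFR, PP minus pLN was -0.177 in complex I, -0.463 in complex II, -0.275 in complex III, -0.327 in complex IV, where 14 of 14 genes were lower, -0.204 in complex V and -0.658 in the 9 factors that are no subunits, all 9 lower. The median over all tested probes was 0.003, and with 75th percentile scaling the members' median was -0.614 and 0 of 88 were higher. Among the fixed core genes Uqcrfs1, with the lowest value in complex III (-0.85), missed the threshold. It read 14589 and 17810 in TFR of pLN at day 12 and 6325 and 12588 in TFR of PP. Cox4i1 (-0.74, adjusted p = 0.0893), Sdhd (-0.60, 0.0996), Cox5b (-0.50, 0.407), Cox5a (-0.46, 0.0572) and Sdhc (-0.44, 0.334) also missed it, and Sdha read 0.16. Without slide 4, PP TFR is a single array whose spread is assumed to be that of the other groups. In that fit 4 members were called (Ndufaf4, Cox6b2, Cox4i1 and Ndufa9), and the 6 of the 8 that no longer passed had differences of -0.43 (Atp5g1) to -0.87 (Ndufaf5). With 2 arrays in each tissue, leaving out any 1 of the 4 TFR arrays left 2 to 4.

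In Treg and in GL7+ TFH no member passed between tissues, where 2.57% and 5.97% of all tested probes were called. An unadjusted p under 0.05 was reached by 9 and 7 members, all lower in PP, and by 14.6% and 19.6% of all tested probes, a larger share than among the members. Their medians were -0.166 and -0.201, and in Treg Sdhc (-0.59), Cox4i1 (-0.58) and Ndufa9 (-0.57) had the lowest values. The difference in TFR minus Treg between PP and pLN was tested directly and no member was called, where 0.548% of all tested probes were, and 1 member reached an unadjusted p under 0.05. The slide-block model also called none, where 4.73% of all tested probes were higher and 3.69% lower, so that a tissue effect confined to TFR was not shown.

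Over all fractions, 6 members had 8 PP arrays that lay wholly below the 12 pLN arrays (1.87% of all tested probes did), and 0 had PP arrays wholly above (1.88% of all tested probes did). Cox4i1, the common regulatory subunit of complex IV, read 66346 to 108400 in PP with a median of 85420 and 116670 to 150590 in pLN with a median of 131430. Ndufa9, of the ubiquinone-side arm of complex I, read 15217 to 22033 in PP (median 18025) and 24156 to 30967 in pLN (median 27983). Ndufv1, which binds NADH, read 18264 to 21569 against 22237 to 27905, and Atp5g1 read 45494 to 52630 against 53268 to 73041. The assembly factors Ndufaf4 and Ndufaf5 were the other two. The second probe of Atp5g1, given above for TFR, did not share its direction there. Several marker lists moved with the tissue as well, in TFR of PP against pLN at day 12, where 8.06% of all tested probes were called higher and 8.18% lower. All 7 proliferation genes were lower, 5 of them called, with a median of -2.01, and all 4 naive T cell markers were lower and called, with a median of -2.25. All 4 follicular markers were higher, 3 of them called (median 2.35), as were 12 of 12 B cell markers, 1 of them called (median 2.72), and 7 of 7 epithelial markers tested, 1 of them called (median 1.85). Their part in the members' values was not tested.

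**Figure D4:**
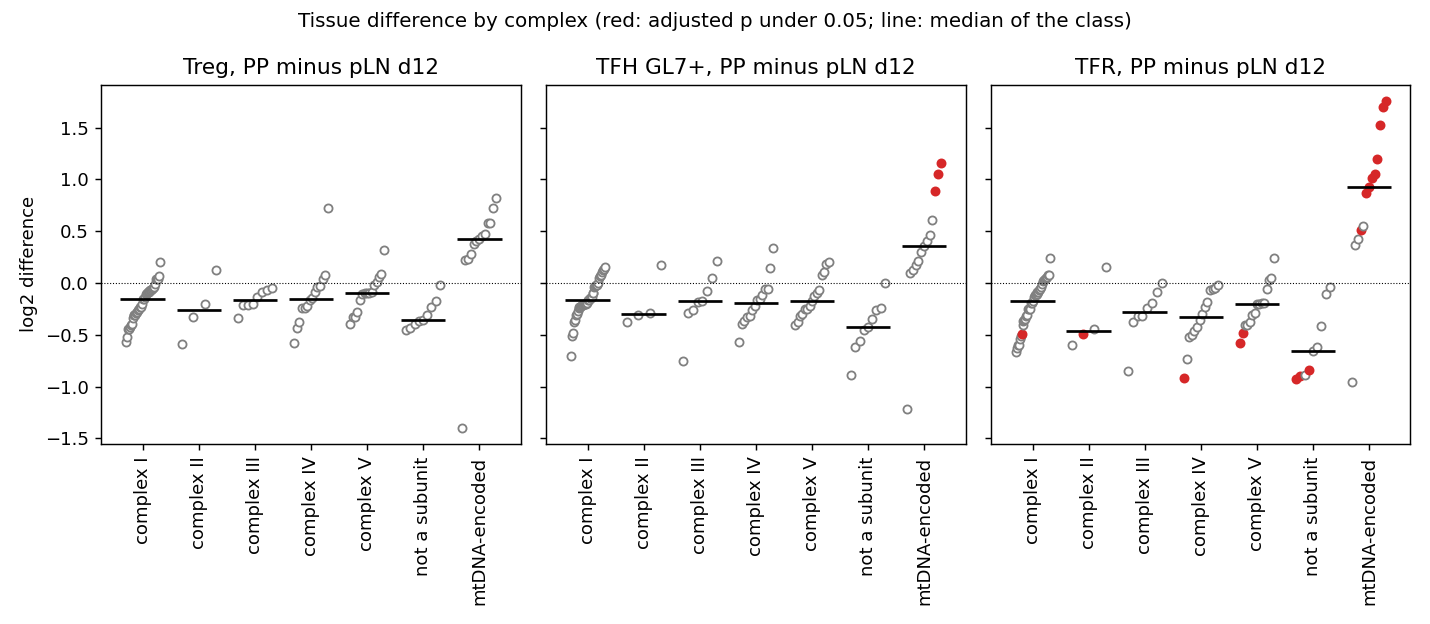
Log2 difference, PP minus pLN day 12 (vertical axis), of each gene in Treg, GL7+ TFH and TFR (panels), grouped by complex, factors that are no subunits and subunits encoded in mitochondrial DNA, with filled red points for adjusted p under 0.05 and a line at the class median (the pseudogene is left out). In TFR the class medians of nuclear genes lie between -0.177 and -0.658 and that of the mitochondrially encoded genes at 0.926.

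Subunits encoded in mitochondrial DNA, which are no members by the rule, went the other way between tissues. The array has 1 probe for each of the 13, of which 7 are placed on the mitochondrial genome and 6 (ATP6, ATP8, COX2, COX3, ND3 and ND4L) on a stretch of chromosome 1 with matching sequence, so that those 6 cannot be told from a nuclear copy. In TFR, PP minus pLN day 12, 12 of 13 were higher, 9 of them called (8.06% of all tested probes were called higher), with a median of 0.926. ND5, a proton-pumping subunit of complex I, was higher by 1.52 ± 0.16 (adjusted p = 0.000434), ND2 by 1.70 ± 0.23 (adjusted p = 0.00138) and CYTB, the core of complex III, by 1.02 ± 0.19 (adjusted p = 0.00661). ND5 read 70255 and 80345 in TFR of pLN at day 12 and 225920 and 206090 in TFR of PP. With 75th percentile scaling 3 of them passed (ND2, ND4L and ND5) and the median was 0.650, in the same direction.

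Across all fractions ND2, ND5, CYTB, ATP8 and ND4L had PP arrays wholly above the pLN arrays (1.88% of all tested probes did). ND5 ranged from 175300 to 225920 in PP and from 70255 to 143550 in pLN. ND6, the one protein transcribed from the other strand of mitochondrial DNA, lay wholly below (1.87% of all tested probes did). It read 278 to 643 in PP and 712 to 1018 in pLN, and in TFR its difference of -0.96 ± 0.41 missed the threshold (adjusted p = 0.149). In GL7+ TFH 3 were higher and called (ND2 by 1.16, ND5 by 1.05 and ND4L by 0.89), where 5.97% of all tested probes were called in either direction. In Treg none was called, where 2.57% of all tested probes were. There 12 of 13 were higher, and 8 of 13 reached an unadjusted p under 0.05 (14.6% of all tested probes did). Several of these probes reached the brightest value that quantile normalisation allows, 494820, as ATP6 did in both PP TFR arrays, which compresses their differences. In pLN at day 12 the group means of all 13 were lower in TFR than in TFH, with a median of -0.368. None of them was called in the model of group means (6.03% of all tested probes were, in either direction). An unadjusted p under 0.05 was reached by 5 of them and by 15.8% of all tested probes. The slide-block model called 9 lower (10.2% of all tested probes were). On the single arrays of day 25, 10 of 13 were lower and ATP6, ATP8 and ND3 were higher in TFR.

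**Figure D5:**
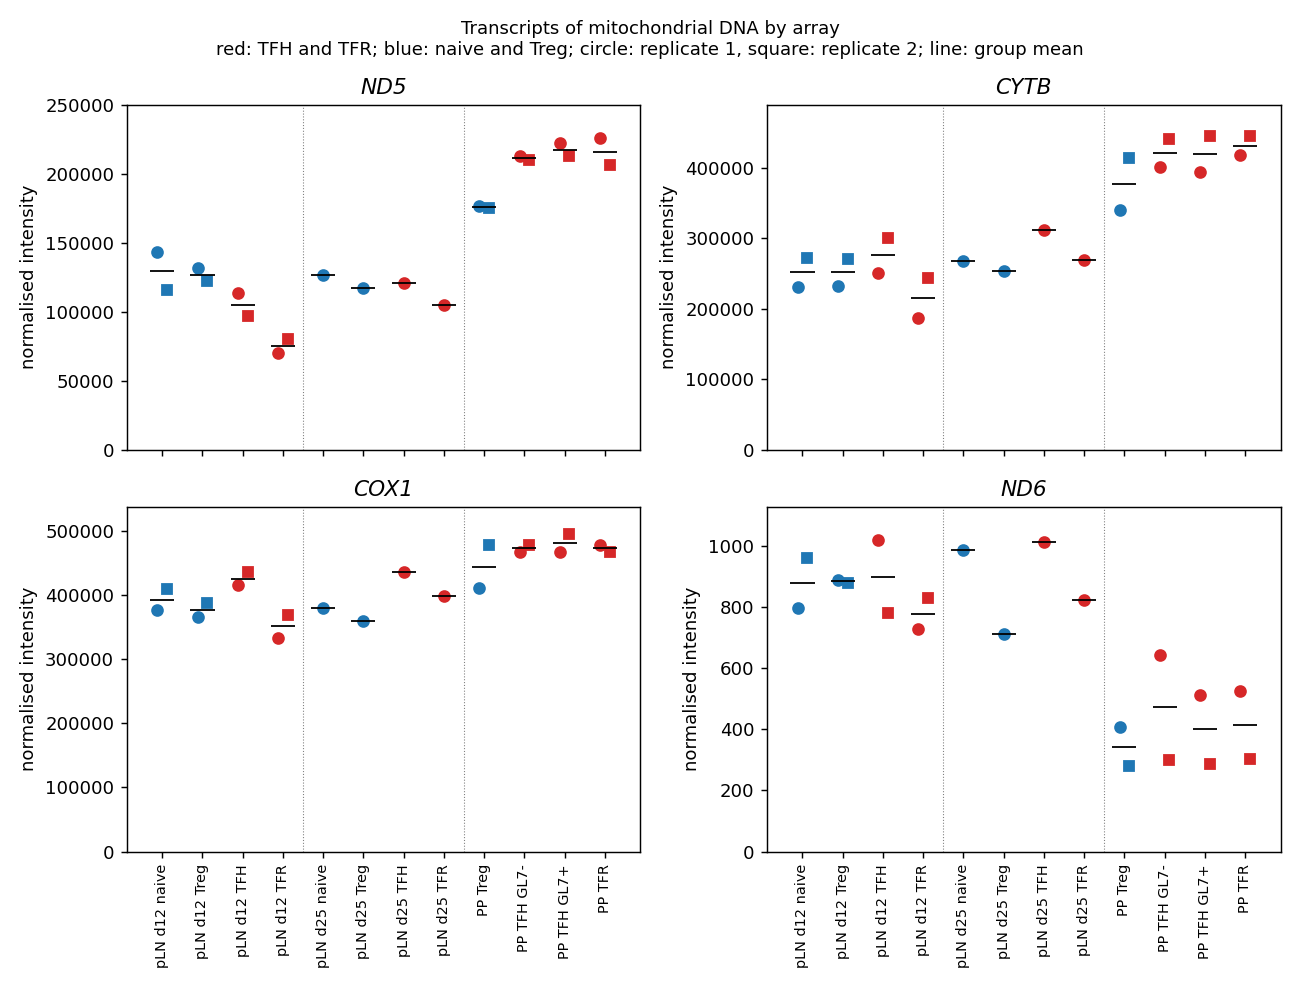
Normalised intensity (linear axis from 0) of ND5, CYTB, COX1 and ND6, transcripts of mitochondrial DNA, on each of 20 arrays, with circles for replicate 1, squares for replicate 2 and a line for the group mean. ND5 and CYTB are higher on all 8 PP arrays than on the 12 pLN arrays, COX1 overlaps, and ND6 is lower in PP.

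Neighbouring pathways were read from lists of named genes, with pLN at day 12. Of all tested probes, 11.1% were called higher and 8.73% lower for TFH minus naive T. For TFR minus Treg these shares were 7.27% and 4.34% in pLN and 7.64% and 4.44% in PP. Of 7 partners of the chain outside the rule, Atpif1, the inhibitor of ATP synthase, was higher by 1.26 ± 0.17 in TFH than in naive T (adjusted p = 0.000457), by 1.08 ± 0.17 in TFR than in Treg of pLN (adjusted p = 0.0027) and by 1.17 ± 0.17 in PP (adjusted p = 0.0014). Etfb, a subunit of the electron transfer flavoprotein, was higher by 0.87, 0.83 and 0.50 in the same comparisons (adjusted p = 0.00131, 0.00383 and 0.0425). These were the 2 called of 7 each time. Of 13 genes of the citric acid cycle none was called in the 3 comparisons, with medians of 0.17, 0.11 and 0.08. Of 20 genes of glycolysis and lactate export, 8 were higher and 3 lower in TFH than in naive T, 7 and 1 in TFR than in Treg of pLN, and 8 and 0 in PP, with medians of 0.90, 0.56 and 0.97.

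Regulators and translation machinery of mitochondria gave few calls. For TFH minus naive T, 11.1% of all tested probes were called higher and 8.73% lower. Of 11 biogenesis factors tested, 0 were higher and 2 lower in TFH than in naive T, Myc at -1.92 ± 0.32 (adjusted p = 0.00189) and Nrf1 at -0.52 ± 0.16 (adjusted p = 0.0493), and the list's median was -0.36. Of 76 mitochondrial ribosomal proteins 1 was higher and 3 lower in that comparison, with a median of -0.11. In TFR 10 of the 76 were lower in PP than in pLN (8.18% of all tested probes were) and 0 higher (8.06% of all tested probes were), with a median of -0.40. Of 24 assembly factors outside the rule 0 were higher and 1 lower in TFH than in naive T. In TFR 4 of the 24 were lower in PP than in pLN (8.18% of all tested probes were). Of 95 cytosolic ribosomal proteins 0 were higher and 2 lower in TFH than in naive T. Of 7 proliferation genes 6 were higher in TFH than in naive T and 6 in TFR than in Treg of pLN (7.27% of all tested probes were), with medians of 3.90 and 2.89. The part of these genes in the members' differences was not tested.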

How the data were processed

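RNA of sorted fractions pooled from 8 to 15 mice was amplified once, labelled with 1 dye and hybridised to Agilent arrays that print each probe 4 times. The submitters' processing notes name Agilent Feature Extraction 10.7.3.1. The deposited scanner intensity values (processed signal) are background-subtracted and detrended, and the quality marks (unit: other) are those the authors' scanner software wrote. The authors' series matrix holds intensity values after quantile normalisation, with the 75th percentile set to 1500 and a floor of 20. Here these steps were repeated from the scanner files: geometric means over unflagged features (outliers by 1.42 interquartile ranges or a pixel variation over 0.5 left out), quantile normalisation, scaling and log2. Against the authors' values, the median absolute log2 difference per array was 0.0347 to 0.0362. Control probes were left out, and a probe was tested where at least 3 of 4 features were well above background on both arrays of any group with 2 arrays. The brightest probe by the mean log2 of the series matrix stood for a gene, and 29 members have several tested probes, of which 8 held both signs for TFH minus naive T and 10 for TFR between tissues, where 7 spanned over 0.5 on the log2 scale.

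Groups were compared with limma 3.58.1 in R 4.3.3 (lmFit and eBayes, two-sided, 20 arrays, 12 group means, 8 residual degrees of freedom), with Benjamini-Hochberg adjustment over 22264 probes and a threshold of 0.05. Slide was added as a fixed block (6 residual degrees of freedom) or a random block (consensus correlation 0.742). Replicates are separate experiments according to the study's design, but no label ties a slide to an experiment. P-values of the model of group means thus measure the spread between 2 arrays on different slides. Those of the fixed slide block measure the spread of differences within slides, with the shift between slides taken out. Slides 1 and 4 had an RNA input of 50 ng, the other slides 40 ng. The precision is limited by the number of arrays. Members and lists were chosen with earlier results of these data known. Named genes were called members, up to 10 of the largest differences where fewer were called, and a fixed list of core and isoform genes. The code was tested on simulated data. Alternatives were 75th percentile scaling, normexp background (offset 50), the authors' series matrix values, no filter, the mean of a gene's probes, only the groups compared, a fold minimum, both slide blocks, leaving out slide 4 and leaving out each array. Positions of probes are those of mm9 in the scanner files, and promoters come from RefSeq on GRCm38.p6.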

Additional observations from a re-analysis of the deposited data

Results flagged for a closer look

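In 6 subunits encoded in mitochondrial DNA the difference TFR minus Treg was larger in PP than in pLN at day 12, by a test of the difference itself in the slide-block model. Of all tested probes, 4.73% were called higher in that test. The difference of differences on the log2 scale was 1.05 ± 0.17 for ND5 (adjusted p = 0.0130), 1.03 ± 0.14 for ND4L (adjusted p = 0.00814), 0.89 ± 0.16 for ND2 (adjusted p = 0.0171), 0.75 ± 0.19 for ND3 (adjusted p = 0.0484), 0.64 ± 0.16 for ND4 (adjusted p = 0.0469) and 0.50 ± 0.12 for ND1 (adjusted p = 0.0365). All 6 belong to complex I, and CYTB (0.44) missed the threshold with an adjusted p of 0.0581. The probes of ND3 and ND4L are placed on chromosome 1 and cannot be told from a nuclear copy. ATP6 of complex V read 494820 in both PP TFR arrays, the brightest value that quantile normalisation allows, which compresses differences. COX1 of complex IV read 478390 and 467130 there, near that value. In the model of group means none of the 13 was called (ND5 adjusted p = 0.0932), where 0.548% of all tested probes were. An unadjusted p under 0.05 was reached by 4 of 13 and by 8.17% of all tested probes. With 75th percentile scaling the 13 differences of differences stayed above 0, from 0.11 to 0.59, with none called. Under that scaling TFR minus Treg itself was above 0 for 1 of 13 in PP (median -0.361). In pLN at day 12 it was above 0 for 0 of 13 (median -0.659). With quantile normalisation these counts were 13 and 1, so the sign of the PP difference turned with the scaling. No nuclear member was called in the test of the difference of differences. Day 25 of pLN did not enter that test. With quantile normalisation, TFR minus Treg on its single slide was above 0 for 11 of 13, as in PP. It was 0.24 for ND1, 0.36 for ND3, 0.16 for ND4 and 0.09 for ND4L, and below 0 for ND2 (-0.13) and ND5 (-0.16). On the day 12 slides the 13 had medians of -0.32 and -0.09, at day 25 0.15, and on the PP slides 0.32 and 0.13. A difference between tissues that holds for both days was thus not shown. ND5 read 131430 and 122100 in Treg and 70255 and 80345 in TFR of pLN at day 12, and 176660 and 175300 in Treg and 225920 and 206090 in TFR of PP.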

How the results depend on the processing

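Members called by the model of group means were 4 for TFH minus naive T, 0 for Treg minus naive T, 3 for TFR minus Treg and 0 for TFR minus TFH in pLN, 2 for TFR minus Treg, 3 for GL7+ TFH minus Treg and 0 for TFR minus GL7+ TFH in PP, 8 for TFR between tissues, 0 for Treg and for TFH between tissues, and 8 for any difference. With the slide as a fixed block the first 7 counts became 36, 3, 31, 9, 21, 25 and 2, and with a random block 33, 3, 26, 9, 20, 22 and 1, with 34 for any difference. The labels give no replicate numbers, and the blocks pair arrays by slide only. Scaling to the 75th percentile gave 1 for TFH minus naive T, 1 for PP TFR minus Treg, 1 for PP GL7+ TFH minus Treg, 3 for Treg and 27 for TFR between tissues, and 25 for any difference. The setting without a filter on dim probes counted all 93 members. It gave 9 for TFH minus naive T, 1 for Treg minus naive T, 7 for pLN TFR minus Treg, 1 for TFR minus TFH, 4 and 5 for the 2 PP comparisons with Treg, 4, 4 and 14 for Treg, TFH and TFR between tissues, and 1 for day 25 minus day 12. Fits of only the groups compared gave 1 for TFH minus naive T and 0 for pLN TFR minus Treg, both PP comparisons with Treg and TFR between tissues. A minimum log2 change of 1 gave 0 for each of these 5. Without slide 4 the PP comparisons with Treg gave 1 and 1 and TFR between tissues 4. The mean of a gene's probes gave 1 for PP TFR minus Treg and 5 for TFR between tissues. Shares of all tested probes are given above for the model of group means and the fixed block only. Counts under the other settings, here and below, therefore show how calls moved with the processing and are no result about the members.

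Leaving out 1 array at a time gave 2 to 2 calls for TFH minus naive T, 0 to 1 for pLN TFR minus Treg, 1 to 2 for PP TFR minus Treg, 1 to 3 for PP GL7+ TFH minus Treg, 0 to 1 for TFH and 2 to 4 for TFR between tissues, and 5 to 10 for any difference. In pLN TFR minus Treg every call was lost without Treg replicate 1, Treg replicate 2 or TFR replicate 1, and without TFR replicate 2 Cox7a2l was the 1 call. Uqcr10 lost its call for TFH minus naive T without TFH replicate 1, and Cox7a2l kept it without any 1 of the 4 arrays.

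For subunits encoded in mitochondrial DNA the alternatives were chosen after seeing the data. Against 0 calls for pLN TFR minus TFH, normexp background gave 1, the random block 10 and the fixed block 9. Against 9 for TFR between tissues, 75th percentile scaling gave 3 and leaving out arrays 4 to 7. Against 3 for TFH between tissues, 75th percentile scaling and leaving out slide 4 both gave 0 and leaving out arrays 0 to 1. Treg between tissues had 0 calls, and 1 without slide 4.

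No member called by the model of group means changed its direction under any of these settings. The members' median moved past its spread 7 times, each with 75th percentile scaling. With 2 arrays per fraction, members that missed the threshold are not shown to be alike.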
